A study of Mus musculus with 28 samples.

Results

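RNA of mouse hepatocytes taken out of the liver was compared with RNA of intact liver tissue. The 4 arrays concerned, 2 of a hepatocyte fraction and 2 of whole liver, were chosen by their titles from a series of 28 arrays in 13 groups that covers mouse tissues, sorted liver cells, injured liver and liver organoids. All 4 samples came from C57BL/6 mice with no treatment named, and the labels describe the pair in each group as biological replicates. Hepatocytes 1 and whole liver 1 shared one slide, hepatocytes 2 and whole liver 2 another. Each sample was labelled with Cy3 and hybridised beside the same Stratagene mouse reference RNA labelled with Cy5, so each value below is log2 of Cy3 over Cy5 for 1 probe, and 1 on this scale is a doubling. How the cells were isolated, and the age, sex and number of the animals, are not given in the sources used here, nor whether hepatocytes and tissue came from the same livers. Further comparisons were made with 2 arrays of adult liver from wildtype mice on other slides and with 2 arrays of duct cells sorted by the Mic1-1c3 antibody, which lay on the same 2 slides as the hepatocytes. All 3 comparisons share the hepatocyte arrays, so they are not independent of each other.

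Hepatocytes make up most of the mass of the liver, secrete most plasma proteins and carry out bile acid synthesis, drug metabolism and gluconeogenesis. Between and beside them lie Kupffer cells, the resident macrophages, stellate cells, which store retinol as retinyl esters, and the fenestrated endothelium of the sinusoids. Taking hepatocytes out of the tissue leaves many of these cells behind, and tissue dissociation is known to induce immediate early genes such as Fos and Jun, heat shock genes and inflammatory genes. Hepatocytes also differ along the axis from portal to central vein, where Wnt signals maintain pericentral genes.

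Both hepatocyte arrays held the products that define the cell. Cps1, the entry enzyme of the urea cycle, measured 8.62 and 10.52 in hepatocytes, 8.56 and 9.96 in whole liver, and 0.04 and -0.03 in sorted duct cells. In a limma model over all 28 arrays, 168 of 21047 genes tested differed between hepatocytes and whole liver by a log2 difference of at least 1 with a p, adjusted by Benjamini and Hochberg, under 0.05, which is 0.798%. These are the called genes below. Of them 89 were higher in hepatocytes (0.423%) and 79 lower (0.375%), and the median difference over all genes was 0.01. Fitted to the 4 arrays alone, or to the 8 arrays of both slides (with duct cells and Lgr5-sorted cells after CCl4) and the slide as a block, limma called 0 genes, with 1674 and 1763 genes at an unadjusted p under 0.05. The calls therefore rest on a spread estimated over all 13 groups.

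Whole liver 2 stood apart from the other 3 arrays. Xist, transcribed from the inactive X chromosome, measured -2.14 and -1.92 in hepatocytes, -1.84 in whole liver 1 and 2.53 in whole liver 2. The Y-linked gene Ddx3y measured 1.37 and 1.98 in hepatocytes, 2.35 in whole liver 1 and -0.69 in whole liver 2. Whole liver 2 was thus the high array for Xist and the low one for Ddx3y. Of 9 liver genes known to be higher in female mice, 2 were called lower in hepatocytes, with a median difference of -0.53 on the first slide and -6.23 on the second. All 9 were lower in hepatocytes on both slides. At the probe used, Xist was well above background on both whole liver arrays and on neither hepatocyte array. Leaving out whole liver 2 therefore does not remove the pattern, which whole liver 1 showed to a smaller degree in these measures, though not in Ddx3y. Without whole liver 2 the model called 77 genes, of which 43 were among the 168. The part of this array in the differences below was not tested beyond leaving it out, and the calls below that were lost without it are given as such. Leaving it out sets 2 hepatocyte arrays against 1 whole liver array. The p then holds no spread between whole liver arrays, and a call can be lost through the smaller number of arrays alone.

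Macrophage genes were lower in hepatocytes than in whole liver. Vsig4, a complement receptor of Kupffer cells, measured 1.67 and 1.22 in hepatocytes against 3.12 and 5.37 in whole liver. The groups did not overlap, and whole liver 2 was the highest array. The difference was -2.79 ± 0.56 (SE; n = 2 and 2; limma adjusted p = 0.018), and -3.30 against adult liver (adjusted p = 0.00084). Lyz2, the lysozyme of macrophages and neutrophils, measured -1.72 and -1.29 in hepatocytes against 0.15 and 1.63 in whole liver, again without overlap. Its difference was -2.40 ± 0.45 (limma adjusted p = 0.0099), while another Lyz2 probe gave -0.37. Without whole liver 2 both differences kept their sign but lost the call, at -1.67 for Vsig4 (limma adjusted p = 0.258) and -1.65 for Lyz2 (adjusted p = 0.193).

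All 24 macrophage genes of the list were tested, and each was above background on at least 1 of the 4 arrays. Vsig4 and Lyz2 were the 2 called, both lower, but 22 of 24 genes lay below 0, and 19 of the 22 with values on both slides were lower on both. Over all genes 9943 of 21047 lay below 0, and 5607 of the 20462 with values on both slides were lower on both. The median difference was -1.20, at -0.86 on the first slide and -1.53 on the second, and -0.97 without whole liver 2. The list's mean level was 0.40 and -0.06 on the hepatocyte arrays and 1.14 and 1.74 on the whole liver arrays. Clec4f, a lectin of Kupffer cells, measured 2.97 and 1.24 in hepatocytes against 4.26 and 5.75, a difference of -2.90 that did not pass (adjusted p = 0.088). Marco, a scavenger receptor, measured 0.73 and 0.77 against 1.96 and 5.50, a difference of -2.98 that did not pass either (adjusted p = 0.132). Neither gene overlapped between the groups. With so few arrays a group, arrays can fail to overlap by chance, and how many of all genes did so is not given. For genes not called, non-overlap here and below therefore describes the values and is no test. Arrays did not overlap for 156 of the 168 called genes, so non-overlap adds little to a call. The Kupffer cell product Cd5l still measured 4.63 and 4.80 in hepatocytes, where it was well above background on both arrays, against 5.47 and 7.39 in whole liver. In the fit against adult liver, where 7.12% of all genes were called and 4.05% were lower in hepatocytes, 12 of the 24 were called lower and the median was -1.87. In bulk RNA, fewer cells of a type and less RNA of those genes per cell cannot be told apart.

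Stellate cell and fibroblast genes included 4 of 27 called lower and 0 called higher. Col14a1, a fibril-associated collagen, measured 1.12 and 0.55 in hepatocytes against 3.47 and 3.97 in whole liver, a difference of -2.89 ± 0.58 (limma adjusted p = 0.018). Colec11, a collectin, measured 2.56 and 2.41 against 4.29 and 5.57, a difference of -2.45 ± 0.50 (limma adjusted p = 0.019). Lum, the proteoglycan lumican, measured 0.01 and -0.26 against 2.89 and 1.78, a difference of -2.46 ± 0.59 (limma adjusted p = 0.047). None of these 3 overlapped between the groups, as held for 156 of the 168 called genes. The highest array was whole liver 1 for Lum and whole liver 2 for the others. Without whole liver 2, Col14a1 (-2.64, adjusted p = 0.156), Lum (-3.01, adjusted p = 0.077) and Colec11 (-1.81) all lost the call.

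Lrat, the enzyme that esterifies retinol for storage, had the smallest standard error of the 4. It measured 0.68 and 0.42 in hepatocytes, 2.14 and 2.41 in whole liver, and 3.44 and 4.23 in adult liver. The 3 groups did not overlap, and the 2 arrays within each differed by less than the distance to the next group. Its difference from whole liver was -1.73 ± 0.27 (limma adjusted p = 0.0021) and stayed called without whole liver 2 (-1.59, adjusted p = 0.040), while another Lrat probe gave -0.56. Reln, a secreted glycoprotein, measured 1.35 and 1.17 against 3.81 and 3.88, a difference of -2.58 that did not pass (adjusted p = 0.056). Over the 27 genes, 23 lay below 0, with a median of -0.75 (-0.81 on the first slide and -0.41 on the second). Of the 24 with values on both slides, 16 were lower on both. Not all members of the list were low. Acta2, the smooth muscle actin of contractile cells, differed by 0.07 and Col1a1, the main fibrillar collagen, by 0.01. Against adult liver 11 were called lower and 1 higher, with a median of -1.39.

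**Figure D1:**
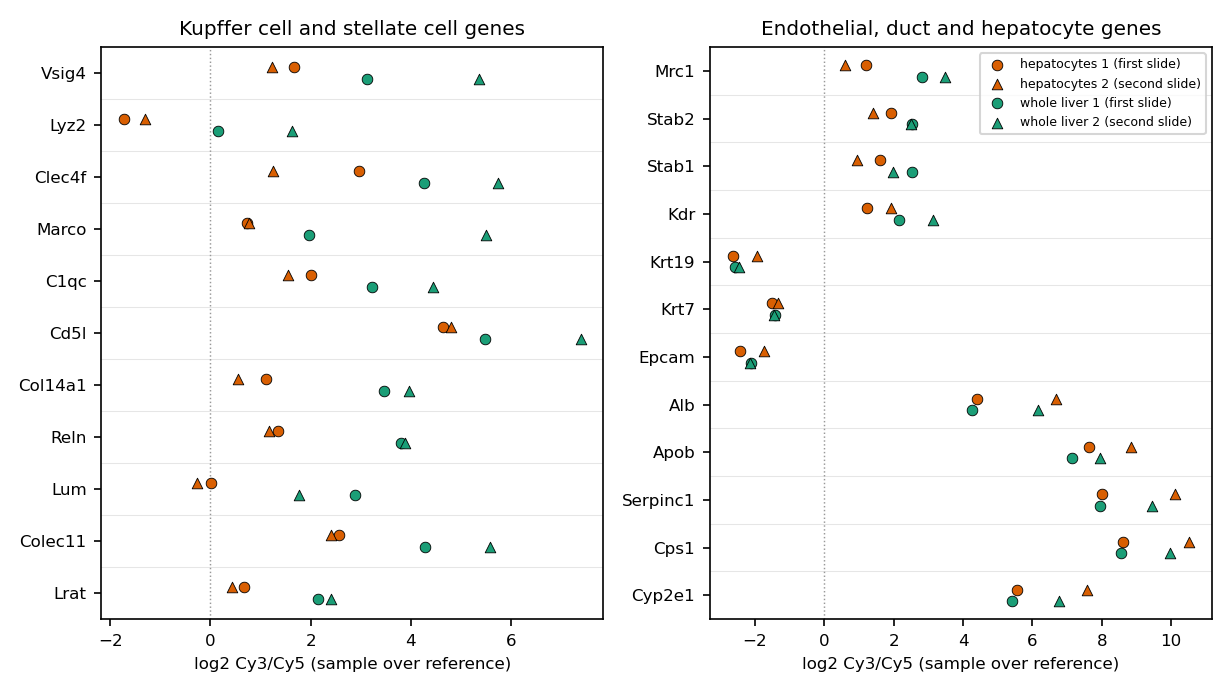
Level of genes of Kupffer and stellate cells (left) and of endothelial, duct and hepatocyte genes (right) on each of the 4 arrays, as log2 Cy3/Cy5; each point is 1 array, circles the first slide and triangles the second. For every gene in the left panel both hepatocyte arrays lie below both whole liver arrays, whereas Krt19, Krt7, Epcam and Alb overlap. The genes shown are examples picked from longer lists, in which 2 macrophage and 4 stellate genes lay above 0.

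No gene of the sinusoidal and vascular endothelium passed, but 25 of 29 were lower in hepatocytes on both slides, beside 5607 of 20462 over all genes. Stab2, a hyaluronan scavenger receptor of sinusoidal endothelium, measured 1.92 and 1.41 in hepatocytes, 2.52 and 2.51 in whole liver, and 3.73 and 3.57 in adult liver. Those groups did not overlap, yet the difference from whole liver, -0.85 ± 0.42, did not pass (limma adjusted p = 0.538). Mrc1, the mannose receptor, measured 1.20 and 0.61 against 2.83 and 3.49, a difference of -2.25 (adjusted p = 0.163). The median over the 29 genes was -0.56, with -0.65 and -0.54 on the slides, and -0.74 without whole liver 2. Against adult liver 13 were called lower, Stab2 among them (-1.99, adjusted p = 0.0047), and the median was -1.90. Endothelial RNA remained measurable in the hepatocyte fraction: Clec4g, a sinusoidal lectin, measured 4.28 and 4.58 there, against 4.97 and 6.12 in whole liver.

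Red cell RNA was lower in hepatocytes by 1 of the measures taken. Hba-a2, an alpha-globin gene, measured 2.43 and 2.14 against 4.47 and 6.06, a difference of -2.98 ± 0.68 (limma adjusted p = 0.038) that lost the call without whole liver 2 (-2.19, adjusted p = 0.366). Hba-a1, its near-identical copy whose signal the probe may share, differed by -3.27 and did not pass (adjusted p = 0.075). Of the list of 8 red cell and platelet genes, which held Hba-a1 and not Hba-a2, 7 were tested, 0 were called and the median was 0.01. Alas2, the erythroid enzyme of haem synthesis, ran the other way at 5.18 and 6.14 in hepatocytes against 4.85 and 4.05 (adjusted p = 0.141). The lists of 13 genes of neutrophils and monocytes (median -0.12), 16 of lymphocytes (15 tested, -0.14), 9 of antigen presentation (-0.35) and 5 of mesothelium (-0.10) also held 0 called genes. Most neutrophil genes could not be read, since 3 of 13 were above background on any of the 4 arrays.

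Genes of duct epithelium did not lie to one side. Of 16 such genes 0 were called, 8 lay below 0 and the median difference was -0.0023. Krt19, a keratin of bile ducts, measured -2.65 and -1.95 in hepatocytes against -2.57 and -2.45 in whole liver, 3.88 and 2.30 in sorted duct cells, and was above background on 1 array of each liver group. The hepatocyte and whole liver arrays overlapped, at levels where neither sample held much duct RNA. Spp1, which duct cells share with activated macrophages, differed by -1.55 and did not pass (adjusted p = 0.186).

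**Figure D2:**
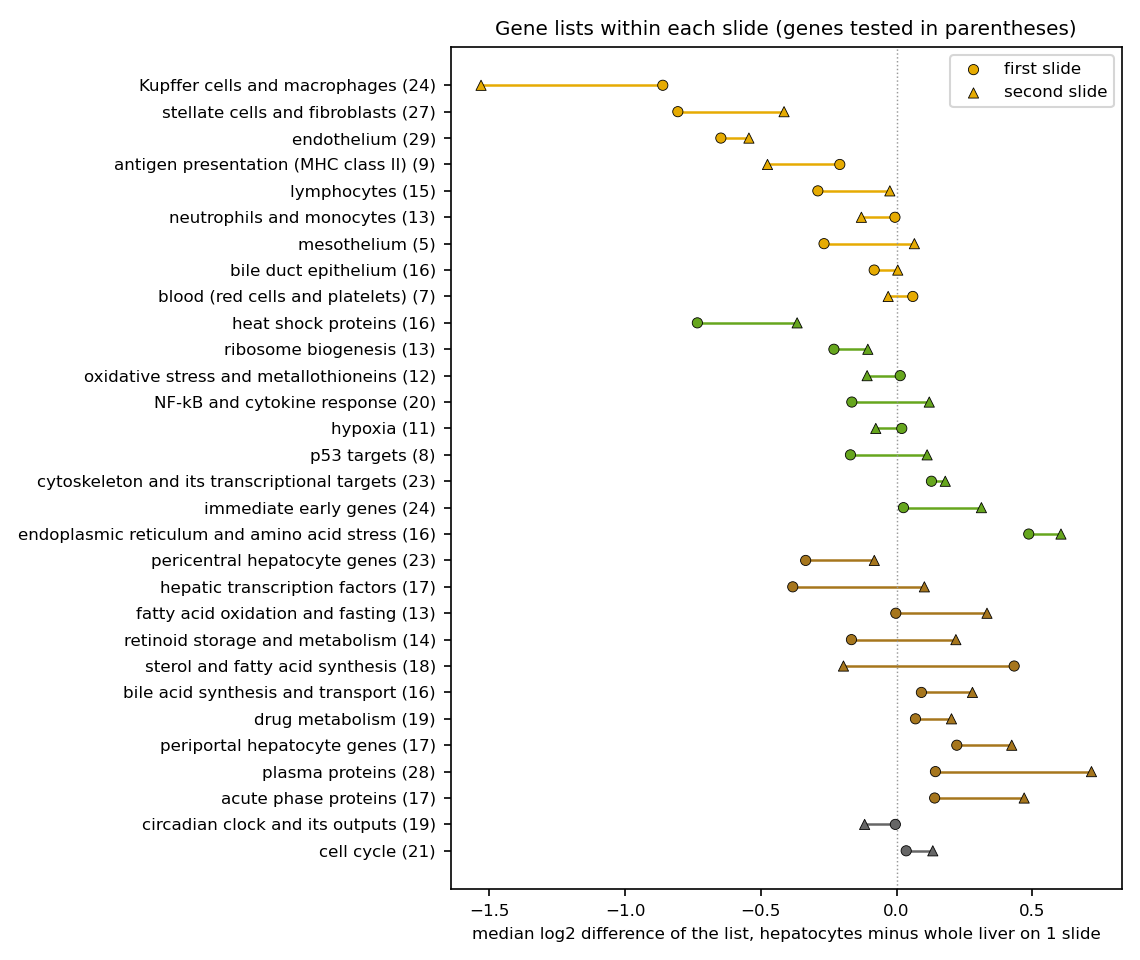
Median log2 difference, hepatocytes minus whole liver, of the gene lists (leaving out sex-biased and sex-linked genes and the lists chosen after seeing the values) on the first slide (circle) and the second (triangle), with the number of genes tested in parentheses; colours separate other cell types, isolation and stress lists, hepatocyte lists and 2 further lists. Of the lists plotted, macrophage genes lie furthest to the left on both slides (-0.86 and -1.53). Stellate, endothelial (-0.65 and -0.54) and heat shock genes (-0.73 and -0.37) also lie below 0 on both. Endoplasmic reticulum and amino acid stress genes lie furthest to the right on the first slide (0.49).

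None of the 24 immediate early genes, which tissue dissociation is known to induce, was called against whole liver. The median difference was 0.17 (0.03 on the first slide and 0.31 on the second), 16 genes lay above 0, and 19 were above background on at least 1 of the 4 arrays. Fos, a subunit of the AP-1 transcription factor, measured -2.80 and -1.94 in hepatocytes, -2.82 and -2.49 in whole liver, and 3.36 and 3.53 in sorted duct cells. Fos was above background on none of the 4 hepatocyte and whole liver arrays, and these overlapped. Egr1, an immediate early zinc finger factor, measured -4.60 and -3.63 in hepatocytes, -4.63 and -4.14 in whole liver, and 1.98 and 3.34 in duct cells. Jun, the partner of Fos, measured -1.88 and -1.71, -1.96 and -2.11, and 2.44 and 2.57. For all 3 genes both duct arrays lay above every hepatocyte and whole liver array. Atf3, a stress-induced repressor, differed by -0.12 ± 0.82 between hepatocytes and whole liver and did not pass. Against adult liver, a fit in which 3.06% of all genes were called higher, 1 of the 24 was: Fosl1, another AP-1 subunit (1.68, adjusted p = 0.017).

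In the fit of hepatocytes against sorted duct cells, which calls 23.4% of all genes and 11.9% as lower in hepatocytes, 23 of the 24 immediate early genes were called lower, with a median of -4.49. Fos differed by -5.82 and Egr1 by -6.78 there. The duct cells differ from hepatocytes in cell type as well as in preparation, and these cannot be told apart. Precision limits the comparison with whole liver: the standard error of Fos was 0.97, because the model shares its spread over groups that include Lgr5-sorted cells, labelled as treated with the liver toxin CCl4 for 6 days, where the 2 arrays measured 4.48 and -0.15.

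**Figure D3:**
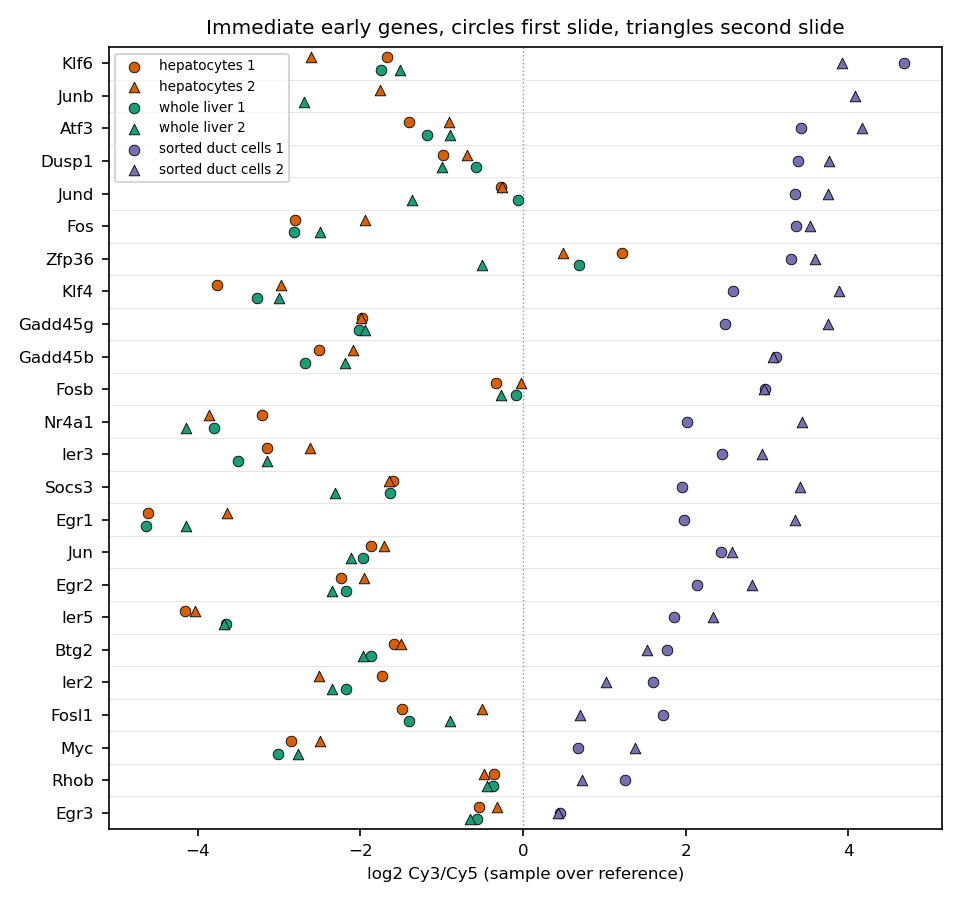
Level of the 24 immediate early genes on the 2 hepatocyte, 2 whole liver and 2 sorted duct cell arrays, as log2 Cy3/Cy5, ordered by the mean in duct cells; each point is 1 array. The hepatocyte and whole liver points lie close together while the duct cell points lie to the right of them for all 24 genes, as for Fos (3.36 and 3.53 in duct cells).

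Heat shock and inflammatory genes were not called either. Of 16 heat shock genes 0 were called, 13 lay below 0 and the median was -0.50 (-0.73 and -0.37 on the slides). Dnaja1, a co-chaperone of Hsp70, measured -0.23 and -1.37 in hepatocytes against 0.69 and 0.51, lower without overlap but not called (adjusted p = 0.165). Hspa1a, the inducible Hsp70 whose copy Hspa1b is near-identical, was not well above background in hepatocytes at the probe used (-0.80 and -0.81) and measured 7.01 and 8.87 in duct cells, against which 10 of the 16 were called lower. Of 21 genes of the NF-kB and cytokine response 20 were tested and 0 called, with a median of -0.01, while 19 were called lower against duct cells. The chemokine Cxcl1 measured -1.94 and -1.21 in hepatocytes against -2.47 and -1.15 in whole liver, and the arrays overlapped. Of 23 genes of the cytoskeleton and its transcriptional targets 0 were called, with a median of 0.11 whose sign turned under 5 of 22 other settings.

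Single genes of 3 other stress lists were called. Gclc, the catalytic subunit of the rate-limiting enzyme of glutathione synthesis, measured 2.94 and 3.51 in hepatocytes against 1.79 and 2.09 in whole liver. It rose by 1.29 ± 0.24 (limma adjusted p = 0.010) and stayed called without whole liver 2 (1.44, adjusted p = 0.040), but measured 3.11 and 3.19 in adult liver, level with hepatocytes (0.08, adjusted p = 0.906). Whole liver was thus the low group for Gclc. Bnip3, a mitophagy receptor induced by hypoxia, measured -1.29 and -1.28 against 0.06 and 0.33 and fell by 1.48 ± 0.26 (limma adjusted p = 0.0062), as the 1 called of 11 hypoxia genes. Bbc3, a p53 target that promotes apoptosis, measured 0.58 and 0.61 against -0.34 and -1.35 and rose by 1.44 ± 0.31 (limma adjusted p = 0.028), as the 1 called of 8 p53 targets. Both lost the call without whole liver 2 (-1.35, adjusted p = 0.087, and 0.93, adjusted p = 0.362). None of the 16 genes of endoplasmic reticulum and amino acid stress was called, though 14 lay above 0 and the median was 0.55 (0.49 and 0.61 on the slides), against 0.20 in the fit with adult liver.

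Metallothioneins differed through 1 array. Mt2, which binds zinc and follows glucocorticoids and metals, measured -4.77 and -4.83 in hepatocytes, -4.92 in whole liver 1 and -0.11 in whole liver 2. Mt1 measured -3.75, -3.00, -3.70 and 0.82. Whole liver 2 alone was high, and neither difference passed (adjusted p = 0.502 and 0.535).

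No gene of the plasma protein, acute phase, periportal and drug metabolism lists was called higher in the hepatocyte fraction than in whole liver. Outside these lists single genes were, among them the complement gene C8b (1.88), which lost the call without whole liver 2 (1.47). Alb, serum albumin, measured 4.41 and 6.69 in hepatocytes against 4.27 and 6.17 in whole liver. The arrays overlapped, and each pair on a slide differed less (0.14 and 0.52) than the slides did. Of 28 plasma protein genes, all above background on the 4 arrays, 25 lay above 0 and 0 were called. Their median was 0.38, at 0.14 on the first slide and 0.72 on the second, and it turned to -0.46 without hepatocytes 2 and to -0.19 without whole liver 1. C9, a terminal complement component, came nearest at 4.71 and 3.83 against 3.28 and 2.15 (1.56, adjusted p = 0.053), but was called lower than adult liver (-1.92, adjusted p = 0.0029). C9 was the exception there: against adult liver 4 of the 28 were called higher and C9 alone lower, with a median of 1.24. Apob, the protein of secreted lipoproteins, was among the higher (1.42, adjusted p = 0.024). Of the drug metabolism genes 3 were called higher than adult liver and 1 lower. The 17 acute phase genes (median 0.42), the 17 tested of 18 periportal genes (0.27) and the 19 tested of 20 drug metabolism genes (0.26) also held 0 called genes, and their medians turned negative in the same 2 leave-outs.

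Of 14 genes of retinoid storage and metabolism, 2 were called higher and 1, Lrat, lower. Cyp26a1, the hydroxylase that clears retinoic acid and is itself induced by it, measured 5.30 and 5.72 in hepatocytes, 3.40 and 2.64 in whole liver, and 4.85 and 4.73 in adult liver. Both hepatocyte arrays were above all 4 liver arrays, and the 2 liver groups were themselves well apart. Cyp26a1 rose by 2.49 ± 0.31 against whole liver (limma adjusted p = 0.00035; 2.11 without whole liver 2, adjusted p = 0.016), and differed from adult liver by 0.72, which did not pass (adjusted p = 0.144). Dhrs3, a retinaldehyde reductase that also responds to retinoic acid, measured 2.86 and 2.07 against 1.56 and 1.30, without overlap. It rose by 1.04 ± 0.24 (limma adjusted p = 0.044), lost the call without whole liver 2 (0.91, adjusted p = 0.288) and differed by 0.56 from adult liver (adjusted p = 0.152).

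The other retinoid genes did not pass. Cyp26b1, the other retinoic acid hydroxylase on the list, measured 0.64 and 1.15 against 1.46 and 3.24 (adjusted p = 0.454). Rarb, a receptor and target of retinoic acid, measured 0.86 and 1.1 against 1.13 and 1.78 (adjusted p = 0.994). The retinol transport genes Rbp4 and Ttr differed by 0.26 and 0.54 and did not pass.

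The promoters of the 2 genes called higher are shown because retinoic acid receptors bind paired half-sites there in known target genes. Each is the 250 bases before a transcription start on the plus strand of GRCm38.p6, from RefSeq, at chr19:37697558-37697807 for Cyp26a1 and at chr4:144892577-144892826 for Dhrs3, whose most upstream of 3 starts is printed. Capitals mark the half-site TGAACT, searched on both strands.
Cyp26a1: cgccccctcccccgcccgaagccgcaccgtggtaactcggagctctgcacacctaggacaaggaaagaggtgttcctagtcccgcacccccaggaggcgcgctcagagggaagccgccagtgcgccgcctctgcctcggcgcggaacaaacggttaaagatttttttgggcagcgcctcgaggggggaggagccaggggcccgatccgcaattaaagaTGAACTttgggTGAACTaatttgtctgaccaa
Dhrs3: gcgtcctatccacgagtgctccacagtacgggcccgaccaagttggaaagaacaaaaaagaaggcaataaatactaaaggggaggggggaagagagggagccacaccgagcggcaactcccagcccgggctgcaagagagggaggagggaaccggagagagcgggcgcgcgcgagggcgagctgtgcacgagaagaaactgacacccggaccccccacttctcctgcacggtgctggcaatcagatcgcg
The Cyp26a1 window held 2 half-sites, which together form 1 direct repeat with 5 bases between them (TGAACTNNNNNTGAACT), beginning 32 bases before the start. That repeat was in 7 of 32851 mouse promoter windows of this length (0.0213%), and the half-site alone in 3891 (11.8%). The repeat counted has the half-site letters that the Cyp26a1 window holds, so its rarity is no test of that gene. The 3 Dhrs3 windows held 0 half-sites of this spelling, and other spellings were not searched. A match describes the letters only, and binding was not measured.

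Pericentral genes included 3 of 23 called lower. Oat, ornithine aminotransferase, measured 1.14 and 1.07 in hepatocytes, 2.92 and 3.55 in whole liver, and 3.12 and 3.28 in adult liver. The hepatocyte arrays lay below all 4 liver arrays, and both liver groups were level. Oat fell by 2.13 ± 0.26 against whole liver (limma adjusted p = 0.00035; -1.82 without whole liver 2, adjusted p = 0.015) and differed by -2.10 from adult liver (adjusted p = 6.1e-05). Cyp7a1, the rate-limiting enzyme of classical bile acid synthesis, measured 4.01 and 4.81 against 5.76 and 7.74, and 6.51 and 6.05 in adult liver. It fell by 2.34 ± 0.48 (limma adjusted p = 0.019; -1.35 without whole liver 2, adjusted p = 0.282), while another probe gave -0.95. Nr1i3, the xenobiotic receptor CAR, measured 3.69 and 3.10 against 4.42 and 4.73 and fell by 1.18 ± 0.27 (limma adjusted p = 0.037; -1.02 without whole liver 2, adjusted p = 0.259). On the log ratio that Feature Extraction wrote, the Nr1i3 difference was 0.13.

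The pericentral genes most used as landmarks did not pass. Glul, glutamine synthetase, measured 3.44 and 4.50 against 4.69 and 4.21, and the arrays overlapped. Cyp2e1, an ethanol-oxidising P450, measured 5.55 and 7.58 against 5.42 and 6.78. Lgr5, a Wnt target and R-spondin receptor, measured 1.52 and 0.97 in hepatocytes, 0.60 and 0.28 in whole liver, and 3.44 and 3.35 in adult liver. Its difference from whole liver, 0.81, did not pass (adjusted p = 0.443), and that from adult liver was called lower at -2.15 (adjusted p = 0.00087). The 2 liver groups thus lay on opposite sides of the hepatocytes for Lgr5. Axin2, another Wnt target, was above background on none of the 4 arrays. The median over the 23 genes was -0.19, beside 0.27 for the periportal genes.

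Of 16 genes of bile acid synthesis and transport, Cyp7a1 and Slco1a4 were called lower and the median was 0.14. Slco1a4, an organic anion uptake carrier, measured 2.38 and 1.57 against 3.36 and 6.09, with whole liver 2 the highest array. It fell by 2.75 ± 0.50 (limma adjusted p = 0.0090), and without whole liver 2 by 1.38, which did not pass (adjusted p = 0.067). The export pump Abcb11 and the uptake carriers Slc10a1 and Slco1b2 differed by 0.70, 0.10 and 0.18 and did not pass. Of 17 hepatic transcription factors Nr1i3 alone was called, and the lineage factor Hnf4a, at 3.94 and 3.53 against 4.05 and 4.45, was not (adjusted p = 0.381). Against adult liver 9 of the 17 were called lower with a median of -1.09, Hnf4a among them (-2.04).

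Genes of sterol and fatty acid synthesis included 1 of 18 called higher and 2 lower. Srebf1, which drives fatty acid synthesis, measured 2.35 and 3.54 against 1.39 and 0.96 and rose by 1.77 ± 0.38 (limma adjusted p = 0.028; 1.55 without whole liver 2, adjusted p = 0.221). Its targets Fasn (1.54, adjusted p = 0.300) and Scd1 (1.33, adjusted p = 0.270) did not pass. Idi1, an isomerase of the cholesterol pathway, measured 1.26 and 1.85 against 2.28 and 3.30 and fell by 1.24 ± 0.28 (limma adjusted p = 0.038; -0.73 without whole liver 2, adjusted p = 0.442). Hmgcs1, which makes HMG-CoA for cholesterol, measured 0.76 and 1.72 in hepatocytes and 3.07 in whole liver 2, its spot on whole liver 1 being left out as an outlier, and was called lower at -1.83 (limma adjusted p = 0.0062). With that spot kept, whole liver 1 measured 1.62, inside the hepatocyte range, and the call was lost (-1.11, adjusted p = 0.135); another Hmgcs1 probe gave 0.15.

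Per2, a repressor of the circadian clock, was the 1 called of 19 clock genes. It measured 0.73 and 0.28 in hepatocytes against 2.58 and 1.44 in whole liver, without overlap, and fell by 1.50 ± 0.30 (limma adjusted p = 0.016; -2.07 without whole liver 2, adjusted p = 0.0038), while another probe gave 0.17. Per1 measured -0.52 and -0.90 against 0.67 and 0.48, lower without overlap but not called (adjusted p = 0.199). The clock output Dbp measured 0.28 and 1.44 against -0.39 and 1.45, and the activator Arntl -0.11 and 0.08 against -0.28 and -0.27, and neither passed. The hour of sampling is not given in the sources used here. Of 14 genes of fatty acid oxidation and fasting, 13 were tested and Vnn1, a pantetheinase induced by PPARα, was called higher. It measured 3.17 and 3.35 against 2.45 and 0.61, but 3.92 and 3.51 in adult liver, and lost the call without whole liver 2 (0.82, adjusted p = 0.208).

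**Figure D4:**
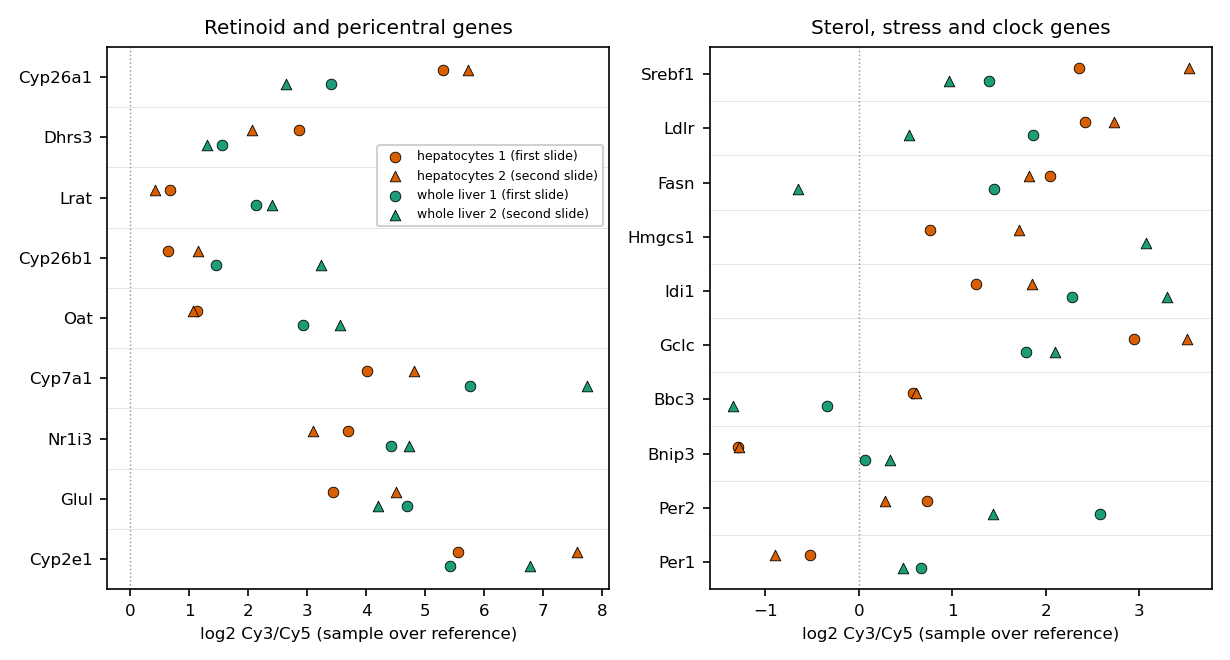
Level of retinoid and pericentral genes (left) and of sterol, stress and clock genes (right) on each of the 4 arrays, as log2 Cy3/Cy5; each point is 1 array, circles the first slide and triangles the second. Cyp26a1 and Dhrs3 lie higher in both hepatocyte arrays and Lrat and Oat lower (Oat 1.14 and 1.07 against 2.92 and 3.55), while Glul and Cyp2e1 overlap; the Hmgcs1 value of whole liver 1 was left out as an outlier spot.

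Beyond the lists, the 10 largest rises among called genes that did not overlap were led by Cyp26a1 and Arsa. Arsa, the lysosomal enzyme arylsulfatase A, measured 0.39 and 1.15 in hepatocytes against -0.85 and -2.51 in whole liver, a rise of 2.45 ± 0.37 (limma adjusted p = 0.0019), but 0.24 and 0.67 in adult liver. H6pd, the hexose-6-phosphate dehydrogenase of the endoplasmic reticulum, measured 3.99 and 3.67 against 2.23 and 1.53 and rose by 1.95 ± 0.25 (limma adjusted p = 0.00041). Nectin1, a cell adhesion molecule, measured 3.28 and 3.92 against 1.84 and 1.37 and rose by 1.99 ± 0.26 (limma adjusted p = 0.00041). These 3 stayed called without whole liver 2 (1.62, 1.60 and 1.75).

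Meox2, a homeobox factor, was detected in the hepatocyte fraction and on both arrays of sorted duct cells (0.42 and 1.29), but in neither liver group. It measured 2.08 and 2.44 in hepatocytes, -0.06 and 0.06 in whole liver, and 0.07 and -0.07 in adult liver, and was not well above background on the whole liver arrays. The ratio differed by 2.25 ± 0.34 (limma adjusted p = 0.0019). On Cy3 levels alone, hepatocytes were at least 5.72-fold higher. Such a bound is on another scale than the ratio, can exceed the fold of the ratios and has no test of its own. It sets the hepatocyte mean against, per whole liver array, the higher of the weakest signal well above background and the probe's own, on dye-balanced Cy3 levels with no dye swap to check them. Another Meox2 probe gave -0.03, so the gene's 2 probes disagree. The other rises were Clstn3 (2.31), Hsd3b5 (2.23), Tmie (2.19), Olfm3 (2.06) and the predicted gene Gm10319 (2.03). Without whole liver 2 Tmie stayed called (1.97), whereas Clstn3 (1.31), Hsd3b5 (0.89), Olfm3 (1.37) and Gm10319 (1.26) lost the call. Clstn3, Tmie and Gm10319 were lower than adult liver (-0.89, -1.01 and -0.49; Tmie called), and Hsd3b5, a steroid dehydrogenase known to be higher in male mice, measured 5.62 and 6.20 in hepatocytes, 5.02 in whole liver 1 and 2.33 in whole liver 2.

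The fall of Sult2a2, a sulfotransferase with near-identical copies that is known to be higher in the female mouse liver, was among the largest. It measured 0.00 and -0.13 in hepatocytes against 4.46 and 9.03 in whole liver, and 0.43 and 0.16 in adult liver. The ratio differed by -6.81 ± 0.81 (limma adjusted p = 0.00033). On Cy3 levels alone, a separate scale that the p does not test, hepatocytes were at least 307-fold below the mean of the 2 whole liver arrays. That mean joins 2 arrays far apart, and the bound does not hold for each slide: on the first slide the ratio differed by -4.45. The adult liver arrays were as low as the hepatocyte arrays; another probe gave -2.61. Whole liver 1 was intermediate, and without whole liver 2 the difference was -4.52. Cyp2b13, of a family of close copies that is higher in females, differed by -3.55 and lost the call without whole liver 2 (-1.34, adjusted p = 0.191).

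A pair of peroxisomal acyl-CoA thioesterases of a family of close copies was also among the largest falls, and here adult liver was high as well. Acot4 measured 1.86 and 1.06 in hepatocytes, 3.87 and 5.11 in whole liver, and 4.75 and 4.17 in adult liver, a fall of 3.03 ± 0.60 (limma adjusted p = 0.016). Acot3 measured 0.25 and -0.00 in hepatocytes, where it was not well above background, 1.86 and 3.93 in whole liver, and 3.03 and 1.93 in adult liver. Its ratio differed by -2.77 ± 0.60 (limma adjusted p = 0.028), and on Cy3 levels alone it was at least 6.93-fold lower. Both genes were called lower against adult liver (-3.00 and -2.36), and both lost the call against whole liver without whole liver 2 (-2.41 and -1.74). Rcan2, a calcineurin regulator, fell by 2.84 (limma adjusted p = 0.024), though another probe gave -0.33, and it lost the call without whole liver 2 (-1.52, adjusted p = 0.340).

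Of the 168 called genes, 156 had values on both slides, and 21 of these differed by over 2 more on the second slide than on the first, against 0 the other way round.

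Genes of protein entry into the secretory pathway and genes of ribosomal proteins lay on opposite sides of the comparison. Both sets were assembled after the values had been seen, so their counts are a description. Of 42 genes of secretory protein entry and folding, 40 lay above 0 and 6 were called higher, with a median of 0.64 (0.62 and 0.67 on the slides; 0.64 without whole liver 2; 0.58 against adult liver). Sec61a1, the channel of the translocon, measured 0.51 and 0.95 in hepatocytes against -0.40 and -0.59 and rose by 1.23 ± 0.18 (limma adjusted p = 0.0015). Rpn2, a subunit of oligosaccharyltransferase, measured -0.22 and 0.08 against -1.46 and -1.42 and rose by 1.37 ± 0.24 (limma adjusted p = 0.0061). Neither overlapped between the groups. Rrbp1, Os9, Prkcsh and Syvn1, which serve ribosome docking, glycoprotein trimming and degradation at the same membrane, were called at 1.38, 1.30, 1.53 and 1.40, although other probes of Rrbp1 (-0.71 to 1.93) and Syvn1 (-0.04) differed and Prkcsh had no value on hepatocytes 1. Without whole liver 2 Sec61a1 and Rpn2 stayed called (1.14 and 1.39), and Rrbp1 (0.79), Os9 (1.1), Prkcsh (1.28) and Syvn1 (0.65) lost the call.

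Of 82 genes of cytosolic ribosomal proteins, 76 lay below 0 and 3 were called lower, with a median of -0.58 (-0.79 and -0.49 on the slides; -0.60 without whole liver 2; -0.39 against adult liver). Rpl12 measured -4.41 and -3.71 against -2.38 and -2.99 and fell by 1.38 ± 0.32 (limma adjusted p = 0.046). Rps14 measured -2.67 and -3.24 against -1.70 and -1.58 and fell by 1.31 ± 0.29 (limma adjusted p = 0.029). Rps12 fell by 1.36 (limma adjusted p = 0.020), with -0.08 at another probe. Without whole liver 2 all 3 lost the call, at -1.68 for Rpl12, -1.25 for Rps14 and -1.07 for Rps12. Many spots of these abundant transcripts were left out as outliers, so 48 of the 82 and 31 of the 42 secretory genes had values on both slides, and ribosomal protein genes have processed copies that a probe may also bind. Over 22 other settings the secretory median ran from 0.42 to 0.78 and the ribosomal median from -1.23 to -0.39.

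**Figure D5:**
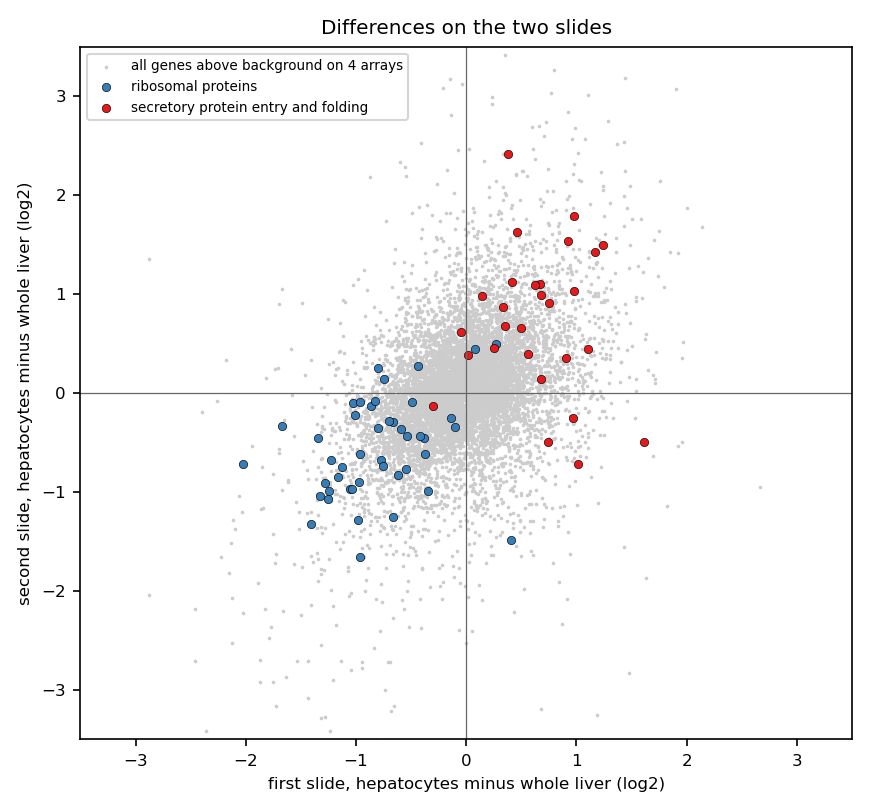
Difference between hepatocytes and whole liver on the first slide (horizontal axis) and on the second (vertical axis), in log2, for 9181 genes above background on the 4 arrays (grey; 26 lie outside the axes), 46 ribosomal protein genes (blue) and 28 secretory genes (red). Most ribosomal protein genes lie at the lower left and most secretory genes at the upper right, below and above 0 on both slides; both sets were chosen after the values were seen.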

How the data were processed

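The deposited files are scanner output of Agilent Feature Extraction 10.5.1.1, per the file headers (8.5.1.1 per the submitters' processing notes) and give each spot's median intensity and background in both channels. They also give a log10 ratio of Cy5 over Cy3, which the deposited series matrix repeats exactly. The ratio was turned so that positive log2 values mean more Cy3 than the deposited reference channel. Intensities were corrected in limma 3.58.1 (R 4.3.3) with normexp (offset 50) and loess, with 1639 control spots at weight 0 and outlier spots left out (1.93% and 1.46% on the first slide, 0.491% and 0.506% on the second). Of 41174 probes, 31082 exceeded background clearly (Cy3, at least 2 of 28 arrays) and were kept. The probe with the highest mean Cy3 stood for a gene, giving 21047 genes, 16786 named through RefSeq and 4261 by the files. Of all probes, 41.5% and 33.1% were above background on the hepatocyte arrays and 45.5% and 35.5% on the whole liver arrays, and none of their spots was saturated. The number of arrays limits precision. lmFit and eBayes used 13 group means (15 residual degrees of freedom). In simulated data for hepatocytes against whole liver with 200 of 21047 genes changed, 35.8%, 86.6% and 97.0% were called at changes of 1, 2 and 3, with 3 false calls. The simulated arrays varied independently, with no slide effect and no array set apart as whole liver 2 was. The false calls therefore do not measure how reliable the calls in the real data are. The slide, read from the headers, pairs hepatocytes and whole liver: their deviations (replicate 1 minus 2) correlated at 0.391 over genes. This was not particular to that pair, since hepatocyte deviations correlated at 0.436 with those of sorted duct cells and at 0.10 with those of Lgr5-sorted cells. The main fit left the slide out. The text names the 10 largest rises and falls among called genes with arrays that do not overlap and a higher group above background, up to 2 called genes each way per list, and key genes of each cell type; other genes were picked as examples. Lists and members were chosen with earlier results of these data known. Some genes that the rule selects are not reported here.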

Additional observations from a re-analysis of the deposited data

How the results depend on the processing

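The count of 168 called genes (89 higher, 79 lower) moved by over 1.5 times under the log ratio written by Feature Extraction (409; 80 higher, 329 lower), Cy3 alone scaled to its 75th percentile (32; 6 higher, 26 lower), a filter of at least 2 of the 4 arrays above background (256), the 4 arrays alone (0), scan day as a random block (263), adult liver in place of whole liver (1498; 645 higher, 853 lower), both liver groups together (102; 25 higher, 77 lower) and, chosen after seeing the data, the first slide alone (20). Most of the 168 calls did not carry over to several of these settings. Of the 168, 91 were called in the same direction on the Feature Extraction log ratio and 26 on Cy3 alone. Against adult liver 44 were, 9 of the 89 higher and 35 of the 79 lower, while 147 of the 168 kept their sign there. With the slide, which is also the replicate number, as a replicate block over 8 arrays, 0 genes were called. Leaving out 1 array at a time gave 77 to 490: 149 without hepatocytes 1, 92 without hepatocytes 2, 490 without whole liver 1 and 77 without whole liver 2. Under quantile normalization, an offset of 16, Edwards background, no filter, the mean of probes, no fold minimum, slide as a random block, array weights, and outlier spots kept (added later), counts ran from 146 to 240.

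Signs turned as follows; the cause was not tested. The cytoskeleton median was -0.20 (Feature Extraction), -0.090 (Cy3 alone), -0.0089 (offset 16), -0.080 (adult liver) and -0.046 (both livers). Cell cycle was -0.054 and Nr1i3 0.13 (Feature Extraction). Neutrophils and monocytes were 0.10 (Cy3 alone). Pericentral genes were 0.035 (quantile). Drug metabolism was -0.011 (Cy3 alone). Ribosome biogenesis was 0.11 (adult liver). Bile acid genes were -0.17 (adult liver) and -0.15 (both livers). Against adult liver, Clstn3 was -0.89, Gm10319 -0.49, Lgr5 -2.15, Tmie -1.01 and Vnn1 -0.46. Leaving out 1 array at a time, medians ran from -0.14 to 0.025 (neutrophils and monocytes, turned without whole liver 2), -0.27 to 0.043 (ribosome biogenesis, without whole liver 1) and -0.57 to 0.079 (NADH dehydrogenase, without hepatocytes 1). The medians of 5 hepatocyte lists turned both without hepatocytes 2 and without whole liver 1, and ran from -0.20 to 0.75 (acute phase), -0.46 to 1.30 (plasma proteins), -0.46 to 0.63 (drug metabolism), -0.40 to 0.56 (bile acid) and -0.16 to 0.65 (periportal). Macrophage, stellate and endothelial medians stayed below 0 under all 22 alternatives (-1.87 to -0.86, -1.55 to -0.41 and -1.90 to -0.41). With 2 arrays a group, changes near 1 are often missed.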

Other observations

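Other gene families chosen after the values were seen lay closer to 0 than ribosomal protein genes. The median difference between hepatocytes and whole liver was -0.18 for 78 genes of mitochondrial ribosomal proteins (50 below 0, 1 called higher) and -0.18 for 49 tested proteasome genes (37 below 0, 0 called). It was -0.17 for 45 genes of NADH dehydrogenase, of which 1, Ndufaf6, an assembly factor, was called lower at -1.09 (limma adjusted p = 0.018; 0.22 and 0.23 in hepatocytes against 1.70 and 0.92). Solute carriers (322 tested, 7 called higher and 1 lower) had a median of 0.07, genes named Tmem (195 tested, 3 called higher) of 0.10 and zinc finger genes named Zfp (333 tested, 0 called) of -0.04.

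Cell cycle genes had a list mean below the reference RNA on all 4 arrays (-2.8 and -2.8 in hepatocytes, -2.8 and -2.7 in whole liver). Of the 21, 14 were above background on all 4. Of 21 genes 0 were called and the median was 0.12. Ccnd1, a G1 cyclin, measured -2.64 and -2.32 in hepatocytes, -1.93 in whole liver 1 and 0.40 in whole liver 2, and did not pass (adjusted p = 0.068). Of 13 genes of ribosome biogenesis 0 were called, with a median of -0.26.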
